A study of Mus musculus with 2 samples.

Results

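The genes described here encode the enzymes, regulators and carriers that make cholesterol, move it between cells and remove it. They are 31 protein-coding genes, taken by symbol from the annotation, of 55536 annotated genes measured. Of these, 18 act in synthesis, 5 in its regulation, 6 in transport and 2 in removal. RNA levels came from total RNA libraries of hippocampus, depleted of ribosomal RNA, from female B6CASTF1/J mice aged 25 days. This strain is a first-generation hybrid of a C57BL/6 and a CAST parent, and alleles of the parents were not separated. ERCC spike-in RNAs were added, and 300 ng of RNA went into each library. There are 2 libraries of this 1 group, called replicate 1 and replicate 2. The labels give them separate biosamples and the same donor entry, so how far their spread includes differences between animals is not known. With 1 group there is no treated or control arm, and the values below are levels and differences between the libraries, with no p-values.

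The brain makes nearly all of its own cholesterol, because lipoproteins of the blood do not cross the blood-brain barrier. Acetyl-CoA is built through mevalonate into farnesyl diphosphate, joined into squalene, closed into the ring of lanosterol and trimmed to cholesterol. When sterol in the endoplasmic reticulum is low, SCAP carries the SREBP transcription factors to the Golgi, where proteases free their active part, and the INSIG proteins hold SCAP back when sterol is plentiful. In brain, astrocytes export cholesterol on particles of apolipoprotein E, myelin-forming oligodendrocytes need much of it, and neurons clear the excess by turning it into 24-hydroxycholesterol. In whole tissue, fewer cells of a type and less RNA per cell cannot be told apart.

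Freed SREBP binds sterol regulatory elements in promoters, beside sites for the factors NF-Y (the letters CCAAT) and Sp1 (GGGCGG). The promoters of these genes are shown first because they are the sequence through which the pathway is switched. RefSeq promoters of the mouse build GRCm38.p6, each with 250 bases before the transcription start and 50 after it, matched 26 of the 31 genes, with 36 promoters in all. The exceptions were Fdps, Fdft1, Sqle, Abcg1 and Npc1. Each motif was searched on both strands. The element TCACNCCAC was found in 1 gene, Hmgcs1, which encodes the synthase of HMG-CoA, the precursor of mevalonate. This is 3.85% of the genes with a promoter, against 1.44% of all 27025 genes in the promoter table and 1.37% of its 9896 detected genes. Detected genes are protein-coding genes of the nuclear genome with at least 1 TPM in both libraries. The match in Hmgcs1 lies on the gene's strand and begins 137 bases before the start. CCAAT was found in 21 of 26 genes (80.8%), against 41.1% of all genes and 43.0% of detected ones. Counted over promoters it was in 22 of 36 (61.1%), against 37.4% of all 32851. It was in 14 of 15 synthesis genes, 4 of 5 regulators, 2 of 2 removal genes and 1 of 4 transport genes. GGGCGG was found in 24 of 26 genes (92.3%), against 38.2% of all genes and 70.4% of detected ones. A match here is a description of letters in this window and not a measured binding site. Below, 1 line is given for each of 4 promoters, 5′ to 3′ on the gene's strand. Hmgcs1, at chr13:119690101-119690400 on the plus strand, is the only one with TCACNCCAC, and capitals mark that match and 4 copies of CCAAT, all of which read ATTGG on this strand. The other 3 were chosen after the motif counts were seen. Mvk, at chr5:114444019-114444318 on the plus strand, encodes mevalonate kinase and is shown for its 5 copies of CCAAT, in capitals on either strand. Srebf2, at chr15:82147019-82147318 on the plus strand, encodes SREBP-2, and capitals mark a match to TCACNCCA, 1 letter shorter and contained in the longer motif, and 1 CCAAT. Cyp46a1, at chr12:108334066-108334365 on the plus strand, encodes the 24-hydroxylase of cholesterol and is shown for 6 copies of GGGCGG, in capitals. The bases after the start of this Cyp46a1 promoter were not found in an annotated transcript of the gene, so its start is less certain.
Hmgcs1: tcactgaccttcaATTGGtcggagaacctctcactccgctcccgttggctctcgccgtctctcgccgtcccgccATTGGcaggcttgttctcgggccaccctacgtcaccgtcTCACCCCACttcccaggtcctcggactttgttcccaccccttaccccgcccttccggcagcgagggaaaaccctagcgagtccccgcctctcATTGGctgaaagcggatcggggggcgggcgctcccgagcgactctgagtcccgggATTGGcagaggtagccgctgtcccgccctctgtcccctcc
Mvk: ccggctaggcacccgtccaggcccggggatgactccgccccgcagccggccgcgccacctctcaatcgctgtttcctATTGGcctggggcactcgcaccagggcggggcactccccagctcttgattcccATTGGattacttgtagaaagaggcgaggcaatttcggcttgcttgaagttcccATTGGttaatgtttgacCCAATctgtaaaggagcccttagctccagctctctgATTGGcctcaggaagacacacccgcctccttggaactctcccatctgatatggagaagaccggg
Srebf2: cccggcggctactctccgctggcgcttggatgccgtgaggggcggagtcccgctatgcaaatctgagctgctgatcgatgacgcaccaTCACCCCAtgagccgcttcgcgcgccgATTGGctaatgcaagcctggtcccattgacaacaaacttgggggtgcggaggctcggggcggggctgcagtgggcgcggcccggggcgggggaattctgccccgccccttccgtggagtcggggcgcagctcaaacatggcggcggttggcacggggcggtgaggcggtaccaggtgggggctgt
Cyp46a1: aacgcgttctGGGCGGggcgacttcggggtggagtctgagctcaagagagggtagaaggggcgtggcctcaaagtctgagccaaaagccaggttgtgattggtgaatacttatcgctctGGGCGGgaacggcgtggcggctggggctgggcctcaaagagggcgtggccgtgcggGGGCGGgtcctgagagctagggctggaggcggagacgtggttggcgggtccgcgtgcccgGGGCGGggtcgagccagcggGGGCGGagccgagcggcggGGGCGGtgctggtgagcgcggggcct
The shorter motif TCACNCCA was added after the sequences were seen. It was found in 4 of 26 genes (15.4%), against 4.97% of all genes and 4.45% of detected ones, and the 4 were Hmgcs1, Srebf2, Msmo1 and Apoe. In Srebf2 it begins 162 bases before the start, in Msmo1 177 and in Apoe 213, there in 1 of its 3 promoters.

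All 31 genes were detected well above the minimum of 200 expected counts over both libraries used for ratios. Levels are in TPM, a relative abundance in which counts are divided by transcript length, so that genes can be compared. As mean ± SD with n = 2, they ran from 7.25 ± 0.792 TPM for Hsd17b7 to 1116 ± 11.4 TPM for Apoe. On build mm10, Apoe lies at chr7:19696109-19699188 on the minus strand, Hmgcs1 at chr13:119690379-119708260 on the plus strand and Lrp1 at chr10:127538161-127621148 on the minus strand. Soat1 lies at chr1:156424525-156474331 and Insig2 at chr1:121304353-121332589, both on the minus strand. Together the 31 genes held 2048 TPM in replicate 1 and 2044 TPM in replicate 2. Transport took 1305 and 1295 of this, mostly Apoe, synthesis 451 and 469, regulation 198 and 193, and removal 94.5 and 87.5.

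**Figure D1:**
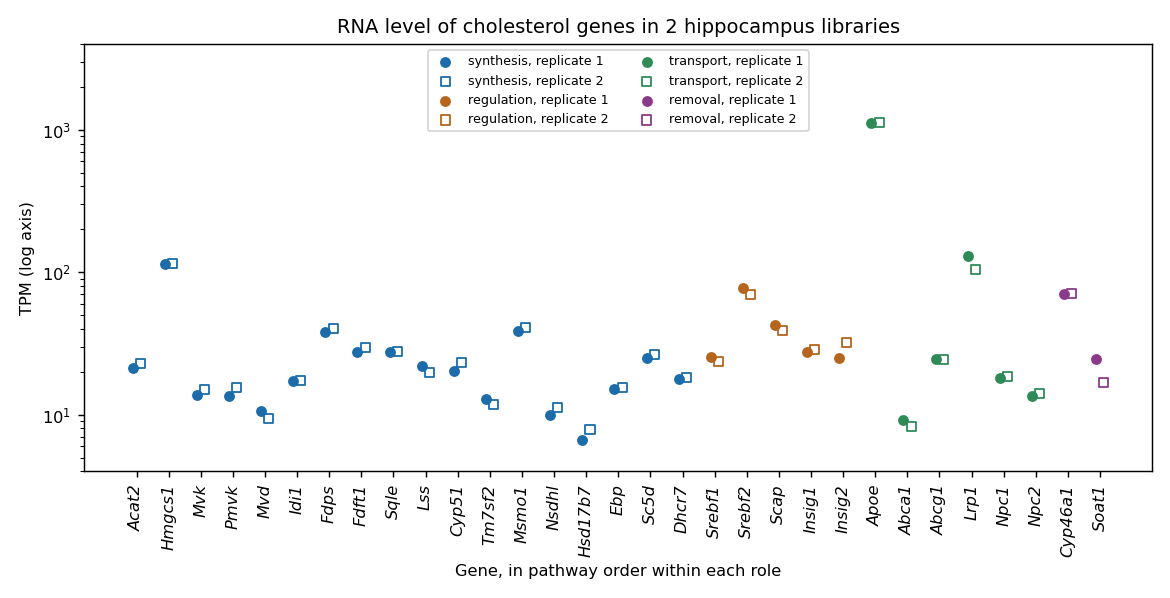
TPM of each gene in replicate 1 (filled circles) and replicate 2 (open squares) on a log axis, coloured by role and ordered along the pathway. Apoe lies highest, at 1108 and 1124 TPM, and Hmgcs1 lies above all other synthesis genes in both libraries.

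The 18 synthesis enzymes spanned 7.25 to 115 TPM with a median of 19.4, with Hmgcs1 far above the rest. Hmgcs1 was at 113 TPM in replicate 1 and 116 TPM in replicate 2. It ranked 682 of the 12681 nuclear protein-coding genes with at least 1 TPM in both libraries. The next highest, the C4-methyl sterol oxidase Msmo1, was at 38.9 and 41.0 TPM. Hmgcs1 was 2.87 ± 0.0620 times Msmo1 (SD of the ratio, n = 2) and between 2.59 and 2.61 times it in the second quantification, a separate transcript table in the kallisto format. The farnesyl diphosphate synthase Fdps followed, at 38.0 and 40.2 TPM. The ratio of Msmo1 to Fdps was 1.02 in each library, so these neighbours did not differ by much, although the gene total of Msmo1 was higher in both. Of their leading transcripts, all coding, Msmo1-201 was the lower, at 25.3 and 28.2 TPM against 35.4 and 37.3 TPM for Fdps-201. In the second quantification Msmo1-201 was the higher, at 45.7 and 52.2 TPM against 42.2 and 49.0 TPM for Fdps-203.

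The other enzymes that build farnesyl diphosphate were lower. The acetoacetyl-CoA thiolase Acat2 was at 21.2 and 22.8 TPM, and the isomerase Idi1 at 17.2 and 17.5 TPM. The mevalonate kinase Mvk was at 13.7 and 14.9 TPM, the phosphomevalonate kinase Pmvk at 13.6 and 15.4 TPM, and the decarboxylase Mvd at 10.5 and 9.40 TPM. The ranges of Mvk and Pmvk overlapped, and Mvd lay below both in each library. These 7 genes summed to 232 ± 6.07 TPM (SD, n = 2).

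In TPM summed over all transcripts of a gene, the squalene and lanosterol steps lay close together. The squalene synthase Fdft1 was at 27.7 and 29.8 TPM, and the squalene epoxidase Sqle at 27.5 and 28.0 TPM. Fdft1 was 1.01 and 1.07 times Sqle, and 0.956 and 1.06 times it in the second quantification, so Fdft1 was the higher except in replicate 1 of the second table. The lanosterol synthase Lss, which closes the rings, was at 21.9 and 19.8 TPM. Coding transcripts held only 27% and 29% of this Lss level. The coding transcript Lss-201 was at 5.31 and 5.22 TPM, below Sqle-201 at 26.8 and 27.1 TPM and Fdft1-201 at 18.8 and 21.2 TPM. The 3 genes summed to 77.3 ± 0.354 TPM.

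The 8 genes from lanosterol to cholesterol summed to 151 ± 6.01 TPM. After Msmo1, the desaturase Sc5d was at 24.9 and 26.6 TPM, the lanosterol demethylase Cyp51 at 20.3 and 23.2 TPM, and the 7-dehydrocholesterol reductase Dhcr7 at 17.9 and 18.1 TPM. The isomerase Ebp was at 15.1 and 15.6 TPM and the C14 reductase Tm7sf2 at 12.9 and 11.7 TPM. The lowest 2 were the C4 steps Nsdhl, at 9.96 and 11.2 TPM, and Hsd17b7, at 6.69 and 7.81 TPM. Msmo1, Nsdhl and Hsd17b7 act in the same round of C4 demethylation, yet their levels differed in the same order in both libraries. Lbr, a nuclear envelope protein that also reduces sterol C14, was at 5.85 and 5.03 TPM. Tm7sf2 was 2.20 and 2.33 times Lbr, and 1.25 and 1.59 times it in the second quantification.

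Of the regulators, the SREBP-2 gene Srebf2 was highest, at 77.4 and 69.8 TPM. SREBP-2 is known mainly for driving cholesterol genes and SREBP-1, from Srebf1, for fatty acid genes. Srebf1 was at 25.2 and 23.6 TPM, so that Srebf2 was 3.07 and 2.96 times Srebf1, and 2.73 and 2.80 times it in the second quantification. These are ratios of gene totals and not of coding RNA. Noncoding transcripts held 44.9% of Srebf1 TPM and 11.3% of Srebf2 TPM, and 52.3% and 9.80% in the second quantification. The escort Scap was at 42.6 and 38.8 TPM. Scap was 0.550 and 0.555 times Srebf2. The retention proteins were at similar levels, Insig1 at 27.6 and 28.6 TPM and Insig2 at 25.0 and 32.1 TPM. Their order in gene TPM turned over between libraries, with Insig1 at 1.10 times Insig2 in replicate 1 and 0.892 times in replicate 2. In the second quantification Insig1 was the lower in both. The leading transcripts, both coding, kept their order, with Insig1-201 at 24.4 and 26.2 TPM and Insig2-201 at 16.4 and 16.7 TPM.

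The carrier Apoe, apolipoprotein E, ranked 6 among the 12681 detected genes. Clu, another apolipoprotein of brain, was at 467 and 472 TPM. Apoe was 2.37 and 2.38 times Clu, and 1.33 and 1.37 times it in the second quantification, so the size of its lead over Clu depended on the table. Lrp1, a large endocytic receptor for apolipoprotein E particles, was at 131 and 105 TPM. It was above Sorl1, another receptor of this family, by 1.56 and 1.38 times, and by 1.27 and 1.19 times in the second quantification. These, too, are ratios of gene totals. The coding transcript Lrp1-201 was at 73.5 and 59.8 TPM, below the gene total of Sorl1 at 83.8 and 76.1 TPM. The coding share of Sorl1 is not given here. The export pumps differed: Abcg1 was at 24.7 and 24.5 TPM and Abca1, which lipidates new particles, at 9.11 and 8.23 TPM. Abcg1 was 2.71 and 2.98 times Abca1, and 3.65 and 3.24 times it in the second quantification. Of the pair that moves cholesterol out of lysosomes, Npc1 was at 18.1 and 18.5 TPM and Npc2 at 13.6 and 14.1 TPM. Npc1 was the higher in both libraries and both tables, by 1.07 to 1.33 times.

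Both removal routes were expressed. Cyp46a1 was at 70.0 and 70.7 TPM, above 17 of the 18 synthesis enzymes, with Hmgcs1 the exception. Soat1, which esterifies cholesterol for storage, was at 24.5 and 16.8 TPM. Soat2, the other esterifying enzyme, had 0 expected counts in both libraries. The second quantification did assign reads to Soat2, so its absence depends on the table. Nceh1, a hydrolase of cholesterol esters, was at 43.5 and 42.9 TPM and above Soat1 in each. Cyp7b1, which acts on other oxysterols, was at 16.0 and 15.5 TPM, and Cyp46a1 was 4.39 and 4.57 times as high.

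None of the 31 genes differed 2-fold between the libraries, where 0.825% of the 12962 genes with at least 200 counts did (107 genes, either direction). None differed 1.5-fold, against 3.88% of those genes. With so few members, a count of 0 is near that background, and it is no result about these genes. Past 1.25-fold, a threshold chosen after the data were seen, there were 2 of 31, against 15.5% of all genes. On the ratio of replicate 2 to replicate 1 these were Soat1 at 0.684 (counting interval 0.639 to 0.733) and Insig2 at 1.28 (1.19 to 1.39). Lrp1, just inside, was at 0.802 (0.789 to 0.816). Counting intervals are exact 95% intervals of the counts and hold no spread between animals. They excluded a ratio of 1 for 12 of the 31 genes (38.7%), 6 in each direction, against 48.6% of all genes. The 6 higher genes were Fdft1, Cyp51, Nsdhl, Hsd17b7, Sc5d and Insig2, and the 6 lower were Lss, Srebf2, Scap, Abca1, Lrp1 and Soat1.

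**Figure D2:**
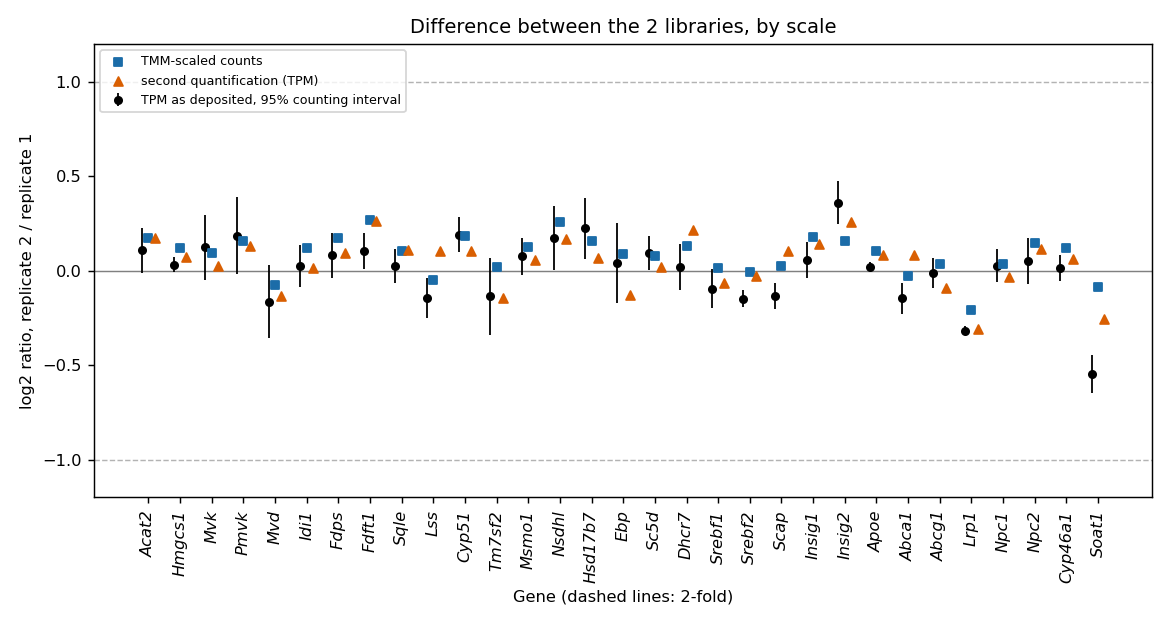
The log2 ratio of replicate 2 to replicate 1 for each gene, as TPM with its 95% counting interval (circles), as TMM-scaled counts (squares) and as TPM of the second quantification (triangles). All values lie within the dashed 2-fold lines, and Soat1 and Insig2 move toward 0 when counts take the place of TPM.

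The 3 genes farthest from a ratio of 1 in TPM differed in what lay beneath it. Soat1 had 1591 and 1759 expected counts, and its effective length, the length by which counts are divided, went from 2701 to 3496 bases, a ratio of 1.29. On counts scaled with TMM, a normalization of library totals, Soat1 stood at 0.941. Insig2 had 1111 and 1456 counts and an effective length ratio of 0.818, and on TMM-scaled counts it stood at 1.12. Lrp1 had 27310 and 27748 counts and an effective length ratio of 1.01, and it stood at 0.865 on TMM-scaled counts. The Lrp1 difference was therefore mostly one of counts, and those of Soat1 and Insig2 were mostly ones of length. In the second quantification the log2 ratios of Soat1, Insig2 and Lrp1 were -0.26, 0.26 and -0.31.

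The lengths moved with short transcripts that hold few reads. In Soat1 the noncoding transcripts held 39.6% of the gene's TPM in replicate 1 and 20.6% in replicate 2. One of them, the retained-intron transcript Soat1-203 of 509 bases, held 22.5% and 14.5% of TPM on 54.3 and 29.9 expected counts. In Insig2 the transcript Insig2-212 of 478 bases held 12.2% and 21.3% of TPM on 27.7 and 77.8 expected counts. Insig2-206, a retained intron of 334 bases, held 5.33% and 14.8% on 7.53 and 33.5 counts.

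**Figure D3:**
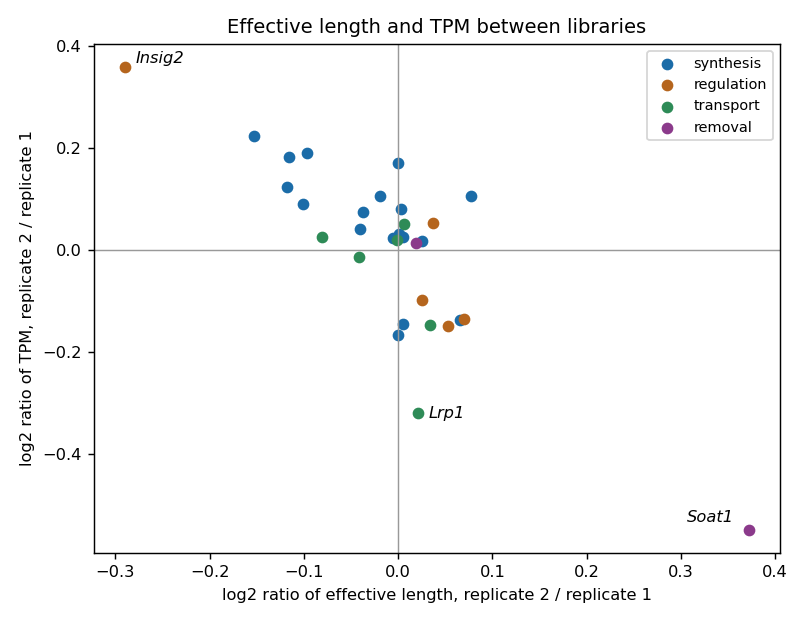
The log2 ratio of TPM against the log2 ratio of effective length, replicate 2 over replicate 1, with 1 point for each of the 31 genes coloured by role. Soat1 and Insig2 lie at the ends of the length axis, while Lrp1 has a length ratio near 1.

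Small differences of the synthesis enzymes ran mostly one way. In TPM, 15 of 18 were higher in replicate 2, with a median log2 ratio of 0.08, where 34.7% of all tested genes were higher and their median was -0.07. The exceptions were Mvd, Lss and Tm7sf2. With TMM scaling 16 of 18 were higher, with a median of 0.12, where 55.9% of all genes were higher and their median was 0.02. Scaled to the spike-ins, 2 of 18 were higher, with a median of -0.07, where 12.2% of all genes were higher and their median was -0.17. The direction therefore flips with the spike-in scale. The enzymes' median lay above that of all genes by 0.15 in TPM and by 0.10 with TMM scaling. Spike-in scaling divides the same counts by another constant in each library, so its gap must equal that of TMM and adds nothing further. Per gene the TPM ratios ran from 0.892 to 1.17, and the counting interval excluded 1 for 6 of the 18, of which 5 were higher. Cell type markers are given as the number higher in replicate 2, in TPM and then with TMM scaling. In both scales 4 of 4 oligodendrocyte markers were higher in replicate 2 (Mbp, Mog, Mag and Cnp, summed level 1320 and 1352 TPM). Of 5 astrocyte markers 3 and then 4 were higher (491 and 496 TPM), and of 3 excitatory neuron markers 0 and then 1 (2981 and 2670 TPM). Of 3 interneuron markers 2 and then 3 were higher (339 and 362 TPM). In both scales 2 of 3 microglial markers (68.5 and 69.5 TPM), 0 of 3 endothelial markers (45.1 and 39.9 TPM) and 2 of 2 blood markers (418 and 452 TPM) were higher. Choroid plexus markers summed to 24.1 and 56.9 TPM, nearly all Ttr, with Folr1, Kcnj13 and Clic6 under 1 TPM in both. Of the oligodendrocyte markers scaled to the spike-ins, Mog was higher in replicate 2 and Mbp, Mag and Cnp were lower. The part of any of these cell types in the enzymes' difference was not tested.

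Of the tissue label, markers of hippocampal fields (Prox1, C1ql2, Wfs1, Fibcd1, Cpne4 and Pcp4) were all present, at 35.4 to 123 TPM. Depth was 34919989 and 41206890 expected counts, of which spike-ins took 0.376% and 0.429%.

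Genes related to the same pathway, outside the 31, were taken from 7 lists of 59 genes. Of the 49 with at least 200 counts none differed 2-fold in TPM. In TPM 13 were higher in replicate 2 and 36 lower, with a median log2 ratio of -0.09, where 34.7% of all genes were higher. With TMM scaling the balance turned over, to 31 higher and 18 lower with a median of 0.02, where 55.9% of all genes were higher. The isoprenoid branches leave the pathway toward ubiquinone, dolichol and protein prenylation. Their list also held genes outside these branches, the mitochondrial thiolase Acat1 and the C14 reductase Lbr. In that list Coq2 was highest at 32.0 ± 0.0778 TPM, followed by Acat1 at 26.1 ± 2.14 TPM and Nus1 at 26.0 ± 2.49 TPM. Further regulators included the nuclear receptor Rxrb at 32.5 ± 2.31 TPM and the SREBP protease Mbtps1 at 28.9 ± 1.15 TPM. Its partner protease Mbtps2 was at 13.0 and 11.1 TPM. Of the liver X receptors, which respond to oxysterols, Nr1h2 was at 24.9 ± 0.389 TPM and Nr1h3 at 1.92 ± 0.460 TPM.

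In the list of lipoproteins and export, Clu was followed by the transporter Abca2 at 70.9 ± 1.49 TPM and Apod at 46.2 ± 1.22 TPM. Abcg4, a relative of Abcg1, was at 32.7 and 26.4 TPM, above Abcg1 in each library in TPM and below it in replicate 2 of the second quantification. Among receptors, Sorl1 was at 79.9 ± 5.43 TPM, the receptor chaperone Lrpap1 at 61.1 ± 0.587 TPM and Lrp8, a reelin receptor, at 38.4 ± 6.77 TPM. Among genes of intracellular transport, Gramd1b and Gramd1a, which carry sterol from the plasma membrane, were at 63.9 ± 7.71 and 46.6 ± 3.96 TPM, and Scarb2 was at 37.2 ± 0.198 TPM. Of the oxysterol and ester genes, Hsd3b7 was at 2.08 ± 0.0919 TPM, far below Nceh1 and Cyp7b1. Of fatty acid genes known as SREBP-1 targets, the desaturase Scd2 was at 292 ± 3.51 TPM, the synthase Fasn at 80.8 ± 4.84 TPM and Scd1 at 67.7 ± 6.17 TPM.

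Levels differed little between the quantifications once each was rescaled to the summed TPM of nuclear protein-coding genes. On that scale 1 of 31 genes, Lrp1, differed 1.25-fold between the tables, at 0.702 times in the second, where 17.5% of 12082 coding genes did. The next farthest were Ebp, at 0.822 times, and Dhcr7, at 1.23 times. Lrp1 was at 302 and 250 TPM on the rescaled first table and 215 and 173 TPM on the second, and it was lower in replicate 2 in both.

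The leading transcript depended on the table for some of the 31 genes. How often this happens over all genes was not counted, so it cannot be called particular to these genes. The 31 genes had 196 annotated transcripts, from 2 to 15 each. The transcript with the largest share of the gene's TPM was the same in both libraries for 31 of 31 genes in the first table and 29 of 31 in the second. Between the tables it was the same for 22 genes and differed for 9: Acat2, Hmgcs1, Mvd, Fdps, Lss, Tm7sf2, Ebp, Apoe and Soat1. In 4 of the 9 (Hmgcs1, Fdps, Apoe and Soat1) both leading transcripts hold the same coding sequence. Apoe shows how far this can go. Apoe-209, of 1104 bases, held 86.7 ± 2.52% of the gene's TPM in the first table, and Apoe-205, of 1221 bases, held 94.7% in the second and 0.400% in the first. For Hmgcs1, Hmgcs1-202 held 77.2 ± 1.45% in the first table and Hmgcs1-201 80.0% in the second. For Fdps, Fdps-201 held 93.0 ± 0.240% and Fdps-203 71.0%.

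For Mvd the difference touched the class of the RNA. Mvd-201, its protein-coding transcript, held all of the gene's TPM in the first table, and Mvd-202, annotated as a target of nonsense-mediated decay, held all of it in the second. The gene's own level differed less, at 0.848 times the first table's on the rescaled scale. A share of Mvd RNA that is coding cannot be given from these tables.

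In 5 genes, noncoding transcripts held over 25% of TPM in the first table: Lss at 71.8%, Srebf1 at 44.9%, Lrp1 at 40.7%, Ebp at 33.8% and Soat1 at 30.1%. These 5 passed it in the second table too, at 70.1%, 52.3%, 27.0%, 25.1% and 30.7%, joined by Mvd, Tm7sf2, Hsd17b7 and Insig2. The median over the 31 genes was 9.27% in the first table and 10.9% in the second. The share of all genes past 25% was not counted, so these counts cannot be called high or low for these genes. By expected counts, which give no extra weight to short transcripts, coding transcripts held 96.4 ± 0.149% of Lrp1, 94.1 ± 2.49% of Soat1, 91.3 ± 1.18% of Srebf1, 67.6 ± 5.11% of Ebp and 43.3 ± 2.40% of Lss. Lss therefore stood apart from the others in holding most of its reads outside coding transcripts on both measures. Its coding transcript Lss-201, of 4667 bases, had 584 and 716 expected counts, and the retained-intron transcript Lss-204, of 6992 bases, had 475 and 662.

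**Figure D4:**
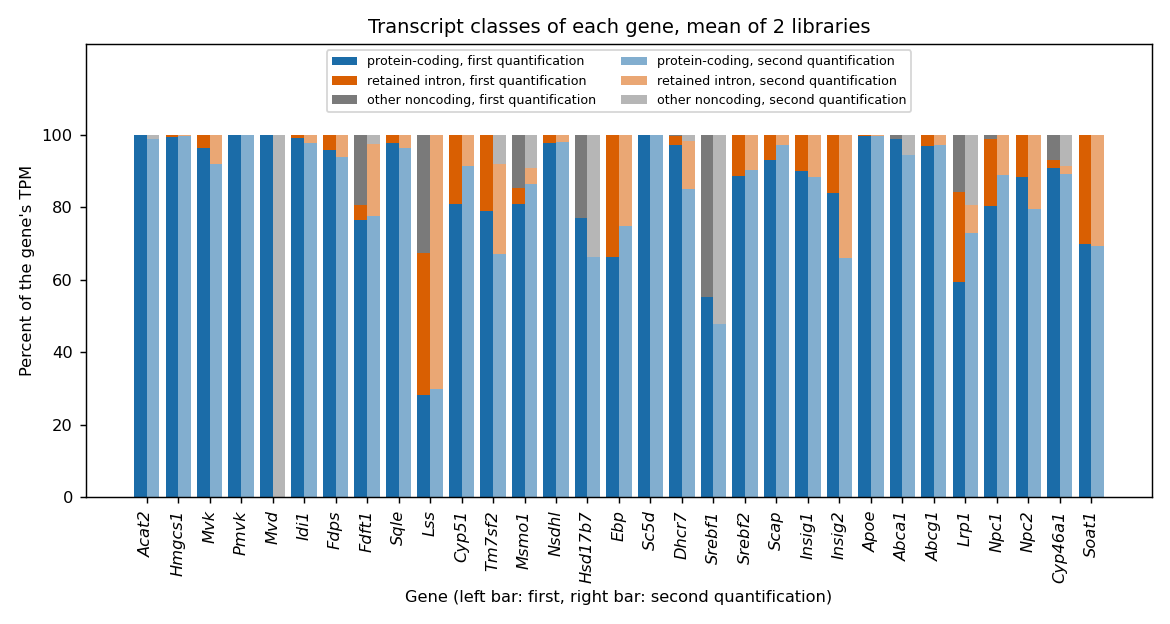
Share of each gene's TPM held by protein-coding, retained-intron and other noncoding transcripts, mean of both libraries, with the first quantification on the left of each pair of bars and the second on the right. Lss is mostly noncoding in both, and Mvd turns from wholly coding to wholly noncoding between the tables.

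Most of the 31 genes could be counted without sharing reads. Expected counts were whole numbers in both libraries, within 0.005, for 26 genes, and fractional for Acat2, Idi1, Fdps, Fdft1 and Tm7sf2, whose levels are less certain. Acat2 shares 43.7% of its 31-base stretches with Acat3, and the latter had 69.6 and 110 expected counts against 1017 and 1350 for Acat2. Idi1 shares 18.4% with the processed pseudogene Gm13502, at 60.0 and 33.6 counts. Fdps shares 24.6% with Gm43738, which overlaps it on the same strand and had 0 counts in both libraries. Fdps also shares 16.0% with Gm3571 and 9.65% with Gm5873, whose counts are not reported here. Fdft1 shares 14.3% with the pseudogene Gm6781, at 0 and 2.34 counts. Tm7sf2 shares 10.7% with its neighbour Vps51, which overlaps it on the same strand and had 1561 and 1854 counts against 373 and 443 for Tm7sf2. In all, 5 genes overlap another gene on the same strand and 12 overlap one on the opposite strand, among them Fdft1 with Ctsb and Cyp51 with Akap9. Whether counting used strand is not given in the sources used here, so reads of such antisense pairs may not be told apart.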

How the data were processed

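Total RNA libraries were made with a stranded, ribosome-reduced protocol, and the build is mm10, per the labels. Gene names, classes and coordinates came from the GENCODE M21 annotation. The aligner is not given in the sources used here. The authors deposited, per the file headers, gene and transcript tables in the RSEM format, with expected counts, TPM and the percent of a gene's TPM held by each transcript. A second deposited transcript table in the kallisto format holds estimated counts and TPM and is called the second quantification. Its transcript values were summed per gene.

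TPM was used as deposited. Ratios are replicate 2 over replicate 1, where the 2 libraries together held 200 expected counts or more, and a library under 3 counts was set at a floor of 3. Exact 95% intervals (Clopper-Pearson) of the count split were multiplied to the TPM scale and cover counting error only. TMM factors came from edgeR 4.0.16, for genes with at least 20 counts, on expected counts rounded to whole numbers, and size factors from DESeq2 1.42.0. Scripts ran in R 4.3.3 and Python 3.11.15 (numpy 2.4.6, pandas 2.3.3, matplotlib 3.10.9, scipy 1.17.1). The ratio rule was tested on simulated data. Sequence sharing was counted over all 31-base stretches of annotated transcripts. The first transcribed bases of 33 of 36 promoters were found in a sense transcript of the same gene, and 0 in an antisense orientation. The promoters not found were those of Cyp46a1, Sc5d and Nsdhl.

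The members and gene lists were chosen with earlier results of these data known. All 31 members are named. Some genes of the related lists and cell markers are not reported here and were left out of counts and sums. Of each related list the 3 genes of highest mean TPM are named, with any 2-fold apart, and the others were added, after their values were seen, as relatives of a named gene. Results were recomputed with TMM, DESeq2 and spike-in scaling, with TPM rescaled to the sum of nuclear protein-coding genes, from the second quantification, with other pseudocounts and count minimums, and from each replicate alone.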

Additional observations from a re-analysis of the deposited data

How the results depend on the processing

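No paired analysis was possible because both libraries belong to 1 group and no test was run. The count of genes 2-fold apart was 0 under every scaling, both other count minimums and a 1.5-fold threshold, and 2 at a 1.25-fold threshold added after seeing the data. The median log2 ratio of the 31 genes was 0.03 in TPM and 0.07 to 0.11 in the second quantification, rescaled TPM, TMM and DESeq2 scaling, and it turned to -0.0888 on the spike-in scale. For synthesis enzymes it was 0.08 in TPM, up to 0.13 under those 4 scalings, and -0.0721 on the spike-in scale. Pseudocounts of 1 and 0.1 moved neither by more than 0.01. The spike-in scale moved the median of all genes from -0.07 to -0.17. The summed level of synthesis enzymes, 460 TPM, was 747 in the second quantification and 1078 after rescaling to protein-coding genes, since the sums to which TPM refers differ, and 451 to 469 with 1 replicate alone. The same transcript led in both tables for 22 genes, 24 among coding transcripts alone, and 21 to 22 with 1 replicate alone. Of single genes' log2 ratios, 5 of 31 changed sign in the second quantification, 4 with TMM or DESeq2 scaling, 1 after rescaling and 19 on the spike-in scale. Lrp1 was lower in replicate 2 under every scaling run.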
